A study of Mus musculus with 6 samples.

Results

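The ADAM metalloproteases described here are 6 genes, Adam8, Adam9, Adam10, Adam15, Adam17 and Adam19, of 24532 gene IDs listed in each of 6 RNA-seq libraries of sorted mouse bone marrow cells. They were taken by name, with each Entrez ID matched to its mouse symbol. The set was selected on measured values, since the level of each gene as TPM (transcripts scaled for length and library total) in all 3 populations was known when it was chosen. For that reason their levels and differences are given as a description and carry no test. Tests are given for lists of genes that work with them, which were also drawn up with earlier results of these data known and are no independent evidence.

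All libraries came from the bone marrow of C57BL/6J mice, and the labels give neither age nor sex. MAR1INT cells were sorted as lineage-negative, CD34-negative, ckit-negative and CD200R3-positive, with an intermediate level of MAR1, an antibody that binds FcεRIα of the IgE receptor. MAR1HI cells carried the same markers with a high level of MAR1. BaP, the basophil precursor, was sorted as lineage-negative, CD34-positive, ckit-negative and MAR1-positive. Each population had 2 libraries, called biological duplicates, and neither the number of mice nor any pooling is stated, so the p-values measure the spread between these libraries only. The tables implied 4.75 to 5.28 gigabases of aligned sequence per library. All 12 basophil markers examined were present in every library, from 21.1 TPM for the integrin gene Itga2 in BaP replicate 1 to 8679 TPM for the protease gene Prss34 in BaP replicate 2. Cd34 averaged 0.0669 ± 0.0946 TPM in MAR1INT, 6.15 ± 2.09 in MAR1HI and 48.3 ± 6.00 in BaP (SD, n = 2 each), highest in the CD34-positive gate. MAR1INT and MAR1HI were both gated as CD34-negative, yet Cd34 was lower in MAR1INT than in MAR1HI (limma adjusted p = 0.00309).

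ADAM proteins are membrane-anchored proteases with a prodomain, a zinc-dependent catalytic domain, a disintegrin domain and a cytoplasmic tail. The active members act as sheddases: they cut the extracellular part from other membrane proteins, which releases soluble cytokines, growth factors and receptors or starts the signalling of receptors such as Notch. ADAM10 and ADAM17 are the widely expressed sheddases of most cells, and ADAM8 is known from granulocytes and monocytes.

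The coding sequences of all 6 genes hold the zinc-binding motif of the metzincins, the stretch that carries the catalytic site. The motif is shown here because the catalytic site lies in it, and its presence alone does not show that a protein cuts. It was searched in frame on the coding strand of the longest complete coding transcript of each gene (GENCODE release M21, build GRCm38, the assembly also called mm10). Each line gives the 33 bases from 5′ to 3′, and the capitals mark the codons of the 3 histidines that hold the zinc and of the catalytic glutamate.
Adam8, chr7:139987893-139987925, minus strand: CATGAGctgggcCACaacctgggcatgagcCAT
Adam9, chr8:24990326-24990358, minus strand: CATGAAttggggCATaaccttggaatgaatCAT
Adam10, chr9:70754296-70761585, plus strand, with an intron inside: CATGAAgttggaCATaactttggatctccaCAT
Adam15, chr3:89344780-89344812, minus strand: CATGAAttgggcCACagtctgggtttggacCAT
Adam17, chr12:21336732-21336764, minus strand: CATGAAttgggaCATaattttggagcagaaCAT
Adam19, chr11:46125050-46125082, plus strand: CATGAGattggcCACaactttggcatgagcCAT

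Adam8 and Adam19 were the most alike in this stretch, with 29 of 33 bases in common. Adam10 and Adam17 shared 26, while Adam8 shared 19 with either of them. The motif was found in 69 of 21760 genes with a coding sequence (0.317%), and in 14 of the 28 other ADAM genes examined (50%). Adam11, Adam22 and Adam23 were among those without it.

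Adam8 encodes a sheddase of myeloid cells that removes its own prodomain. The gene (ID 11501, mm10 chromosome 7, 139978932 to 139992562, minus strand) stood at 261 and 221 TPM in the MAR1INT libraries, 46.4 and 79.5 in MAR1HI, and 6.56 and 14.1 in BaP. Every MAR1INT library was above every MAR1HI library, and every MAR1HI library above every BaP library. The means were 241 ± 28.0 TPM in MAR1INT, 62.9 ± 23.4 in MAR1HI and 10.3 ± 5.34 in BaP (SD, n = 2 each). The difference, on the log2(TPM + 1) scale with its standard error, was 2.53 ± 0.38 for MAR1HI minus BaP, 1.97 ± 0.38 for MAR1INT minus MAR1HI and 4.50 ± 0.38 for MAR1INT minus BaP. In the last of these, Adam8 ranked 15 from the top among 11337 genes with enough signal to be tested. It kept its direction in all 3 comparisons under all 14 other processing settings, of which only the 3 other scalings could have turned it. The rest leave the difference as it was, or cannot turn a difference between libraries that do not overlap. By rank within a library, which rescaling that library leaves in place, Adam8 stood above 95.4% and 94.9% of the tested genes in MAR1INT, 75.5% and 80.5% in MAR1HI, and 28.7% and 45.5% in BaP. Mean read depth over the gene was 617 and 556 in MAR1INT, 135 and 194 in MAR1HI, and 19.5 and 40.6 in BaP, so the low BaP level did not rest on a handful of reads. In such bulk libraries, more cells with the transcript and more transcript per cell cannot be told apart.

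**Figure D1:**
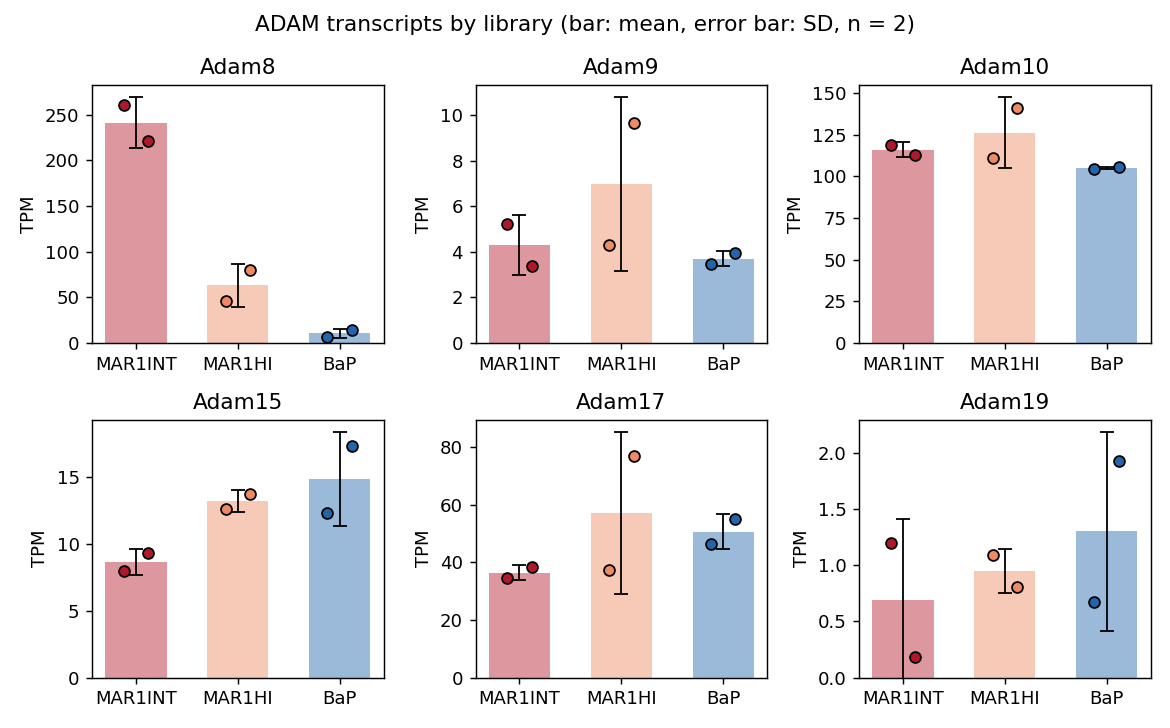
TPM (vertical axes, linear, each from 0) of the 6 ADAM genes in MAR1INT, MAR1HI and BaP. Points are libraries, bars are means and error bars are SD (n = 2). Adam8 stands at 221 to 261 TPM in MAR1INT, 46.4 to 79.5 in MAR1HI and 6.56 to 14.1 in BaP, while the Adam10 libraries lie between 105 and 141 TPM.

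Neutrophils, eosinophils and macrophages can also carry ADAM8, so markers of these cells were set beside it. The summed level of 11 neutrophil markers was 3704 and 3133 TPM in MAR1INT, 3831 and 2631 in MAR1HI, and 4506 and 9210 in BaP. The 8 eosinophil markers summed to 81.5 and 228 TPM in MAR1INT, 81.3 and 119 in MAR1HI, and 2160 and 1146 in BaP. The 11 monocyte and macrophage markers summed to 256 and 205 TPM in MAR1INT, 231 and 282 in MAR1HI, and 592 and 1054 in BaP. The 9 dendritic cell markers summed to 16.1 and 25.6 TPM in MAR1INT, 73.3 and 60.4 in MAR1HI, and 988 and 357 in BaP. Each of these sums was highest in BaP, the population with the lowest Adam8. The part of such cells in the Adam8 differences was not tested. Single genes carried much of some sums. In the neutrophil list, Mpo stood at 113 and 65.1 TPM in MAR1INT, 615 and 495 in MAR1HI, and 1674 and 2138 in BaP. S100a8 stood at 1867 and 1665 TPM in MAR1INT, 1505 and 894 in MAR1HI, and 1298 and 2798 in BaP. For S100a8, BaP replicate 1 was thus below both MAR1INT libraries and BaP replicate 2 above them. Among the markers in these lists, 2 were called higher by limma in MAR1INT than in MAR1HI. The eosinophil lectin gene Siglecf stood at 79.5 and 110 TPM in MAR1INT, 29.5 and 44.5 in MAR1HI, and 21.9 and 20.9 in BaP. It was higher in MAR1INT than in MAR1HI (limma adjusted p = 0.018) and BaP (0.00118), and made up 79.5 of the 81.5 TPM of its list in MAR1INT replicate 1. The macrophage gene Adgre1 stood at 25.5 and 47.6 TPM in MAR1INT, 6.51 and 7.38 in MAR1HI, and 41.6 and 24.8 in BaP. It was higher in MAR1INT than in MAR1HI by 2.18 ± 0.41 (log2, limma adjusted p = 0.00741), as Adam8 was, and lower in MAR1HI than in BaP (0.0361), where Adam8 was higher. Of the 8 eosinophil markers 4, among them the eosinophil peroxidase gene Epx, were listed at 0 in both MAR1INT libraries. Others were not: in MAR1INT replicates 1 and 2, Prg2 stood at 1.95 and 70.0 TPM, Ear2 at 0.0857 and 37.5, and Ear1 at 0 and 11.0.

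**Figure D2:**
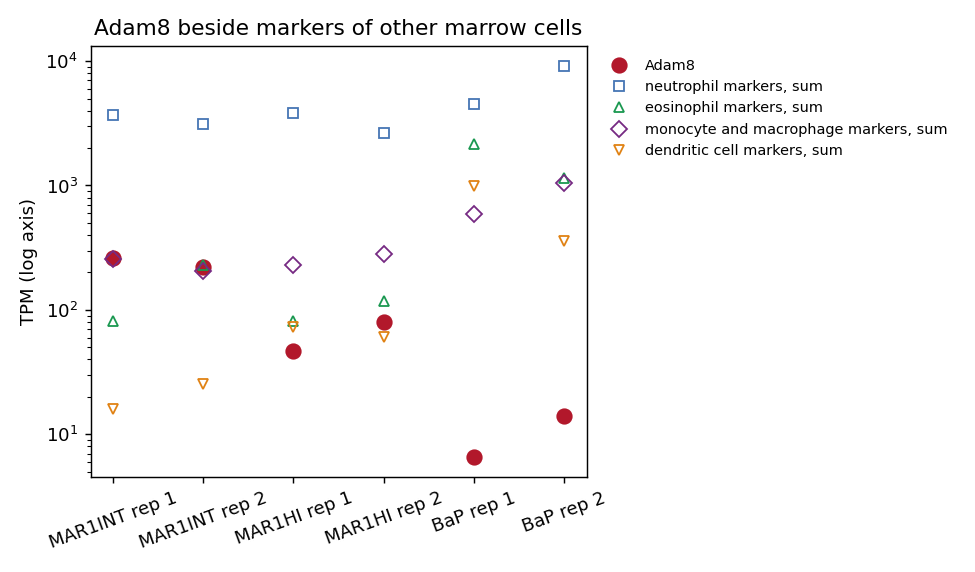
TPM on a log axis of Adam8 (filled circles) and the summed TPM of 4 lists of markers of other marrow cells (open symbols) in each library of MAR1INT, MAR1HI and BaP. The marker sums are highest in the BaP libraries, where Adam8 is at 6.56 and 14.1 TPM.

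Adam10 encodes the sheddase of Notch receptors, E-cadherin and the low-affinity IgE receptor. The gene (ID 11487, chromosome 9, 70678982 to 70780229, plus strand) stood at 119 and 113 TPM in MAR1INT, 111 and 141 in MAR1HI, and 105 and 105 in BaP. It was the steadiest of the 6 genes: the means were 116 ± 4.28 TPM in MAR1INT, 126 ± 21.2 in MAR1HI and 105 ± 0.651 in BaP. In every library it stood above 89.5% to 90.4% of the tested genes. The MAR1INT and MAR1HI libraries overlapped, and both lay above BaP by a small margin. These differences were 0.25 ± 0.22 for MAR1HI minus BaP and 0.14 ± 0.22 for MAR1INT minus BaP (log2), and the sign depended on the scaling. For MAR1HI minus BaP, quantile normalization gave -0.01 and scaling by the median of ratios gave -0.05. For MAR1INT minus BaP it was -0.10 with FPKM and -0.004 after quantile normalization.

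Adam17 encodes the tumour necrosis factor converting enzyme, which also sheds several cytokine receptors. The gene (ID 11491, chromosome 12, 21323509 to 21373632, minus strand) stood at 34.6 and 38.3 TPM in MAR1INT, 37.2 and 77.0 in MAR1HI, and 46.4 and 54.9 in BaP. Both MAR1INT libraries were below both BaP libraries, while MAR1HI replicate 1 lay between the MAR1INT libraries and MAR1HI replicate 2 above every other library. The difference for MAR1INT minus BaP was -0.46 ± 0.35 (log2), and it was below 0 under all 14 other settings. Only the 3 other scalings could have turned it. FPKM gave -0.68, quantile normalization -0.53 and the median of ratios -0.47. For MAR1HI minus BaP the difference was 0.08 ± 0.35, and it was 0.60 without MAR1HI replicate 1 and -0.43 without MAR1HI replicate 2. The sign of this MAR1HI minus BaP difference turned under all 3 other scalings too, where FPKM gave -0.14, quantile normalization -0.24 and the median of ratios -0.21. The annotated end of Adam17 overlaps that of Iah1, on the other strand, by 311 bases.

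Adam9 and Adam15 encode sheddases whose disintegrin domains bind integrins. Adam9 (ID 11502, chromosome 8, 24949611 to 25016922, minus strand) stood at 5.23 and 3.38 TPM in MAR1INT, 4.29 and 9.68 in MAR1HI, and 3.46 and 3.95 in BaP. Its MAR1INT libraries overlapped those of both other populations, while both MAR1HI libraries were above both BaP libraries. The difference for MAR1HI minus BaP was 0.68 ± 0.48 (log2), and it was 0.17 without MAR1HI replicate 2 and 1.18 without MAR1HI replicate 1.

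Adam15 (ID 11490, chromosome 3, 89339640 to 89350028, minus strand) stood at 7.97 and 9.31 TPM in MAR1INT, 12.6 and 13.7 in MAR1HI, and 12.3 and 17.3 in BaP. Both MAR1INT libraries were below all others, while MAR1HI and BaP overlapped. The difference was -0.56 ± 0.38 for MAR1INT minus MAR1HI and -0.70 ± 0.38 for MAR1INT minus BaP (log2). The first was 0.002 after quantile normalization. The second stayed below 0 under all 14 other settings, from -0.93 without BaP replicate 1 to -0.42 after quantile normalization. Only the 3 other scalings could have turned it. Without BaP replicate 2 it was -0.47. An antisense gene, 4731419I09Rik, covers 9290 bases of the Adam15 locus, and whether the counting used strand is not given in the sources used here.

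Adam19, which encodes a protease known for neuregulin shedding, was close to the limit of detection. The gene (ID 11492, chromosome 11, 46054502 to 46147347, plus strand) stood at 1.20 and 0.181 TPM in MAR1INT, 1.09 and 0.806 in MAR1HI, and 0.676 and 1.92 in BaP. Its mean read depth was 1.51 and 0.242 in MAR1INT, 1.69 and 1.05 in MAR1HI, and 1.07 and 2.95 in BaP. All 3 populations overlapped, and no difference was detectable at this depth.

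All 6 genes passed the filter of a TPM of at least 1 in 2 libraries. Their median log2 difference was 0.17 for MAR1HI minus BaP, -0.40 for MAR1INT minus MAR1HI and -0.16 for MAR1INT minus BaP. Over all tested genes it was 0.24, -0.36 and -0.16. Between MAR1HI and BaP, 3 genes were higher in MAR1HI with no overlap of the libraries (Adam8, Adam9 and Adam10), a relation that 38.2% of all tested genes showed, and none was lower (15.3%; 53.5% in either direction). Between MAR1INT and MAR1HI, 1 gene was higher (Adam8, 12.7% of all genes) and 1 lower (Adam15, 42.2%; 55% in either direction). Between MAR1INT and BaP, 2 were higher (Adam8 and Adam10, 29.7%) and 2 lower (Adam15 and Adam17, 39.1%; 68.9% in either direction). With groups of 2 libraries such separation is common, and nothing is read from these counts.

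**Figure D3:**
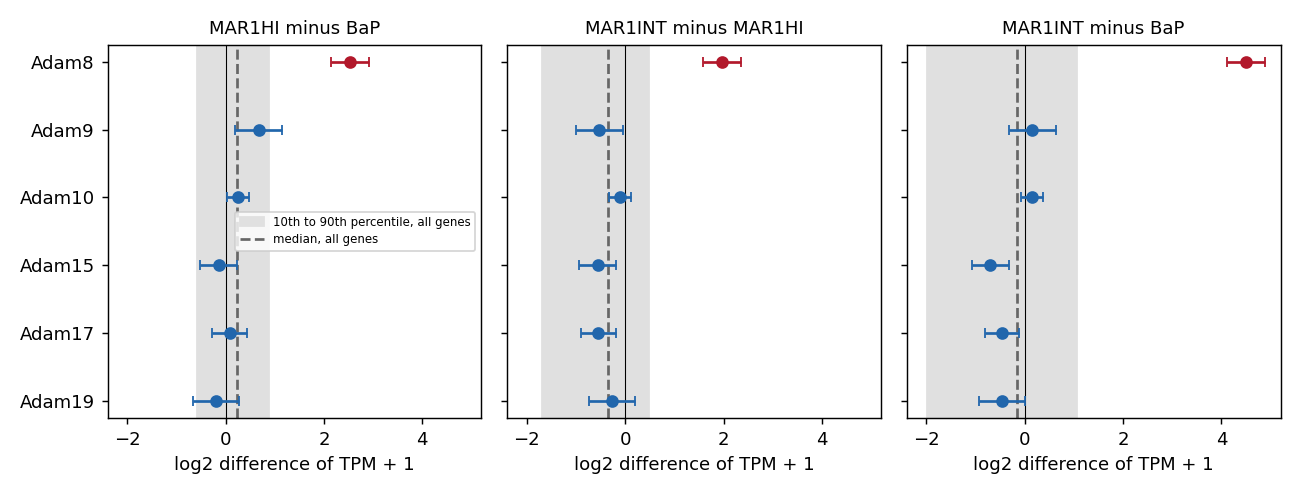
Log2 difference of TPM + 1 (horizontal axes) of each ADAM gene in the 3 comparisons, with its standard error. The grey band spans the 10th to 90th percentile of all 11337 tested genes and the dashed line is their median. Adam8 lies to the right of the band in all 3 panels, at 2.53, 1.97 and 4.50, and the other 5 genes lie inside it.

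The make-up of the ADAM transcript pool differed between the populations. TPM is scaled per transcript length, so levels of different genes can be set side by side, although the capture step of the library kit may pull genes unequally, which was not tested. The 6 genes summed to 429 and 385 TPM in MAR1INT, 213 and 322 in MAR1HI, and 174 and 198 in BaP. Without Adam8 the sums were 168 and 164 TPM in MAR1INT, 166 and 242 in MAR1HI, and 167 and 184 in BaP, with overlap between populations. Adam8 made up 60.8% and 57.4% of the summed TPM in MAR1INT, 21.8% and 24.7% in MAR1HI, and 3.77% and 7.14% in BaP. Adam10 made up 27.7% and 29.3% in MAR1INT, 52.3% and 43.9% in MAR1HI, and 60.1% and 53.4% in BaP. In both MAR1INT libraries Adam8 was the most abundant of the 6 and Adam10 came next, in MAR1HI this order was turned round, and in BaP Adam8 came after Adam10, Adam17 and Adam15.

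**Figure D4:**
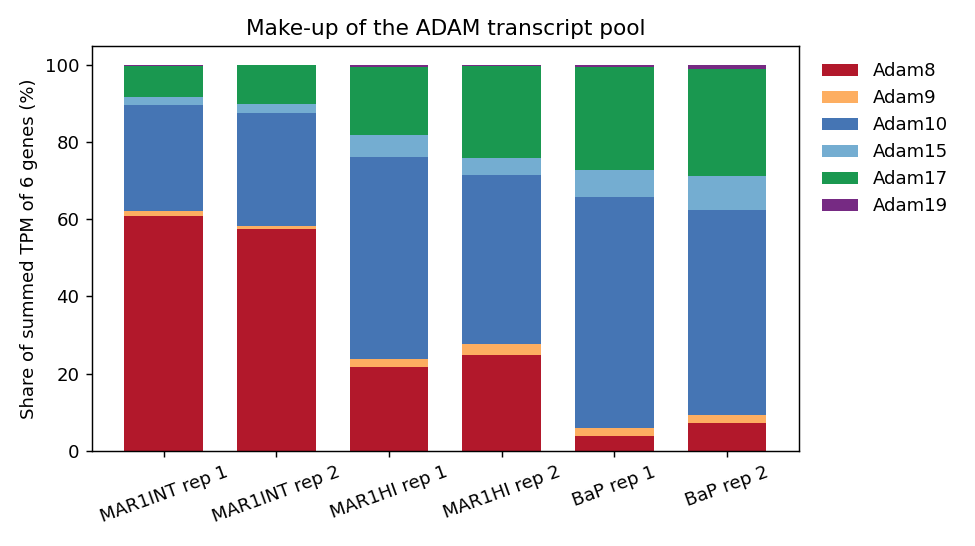
Share of the summed TPM of the 6 ADAM genes (vertical axis, percent) that each gene takes in each library of MAR1INT, MAR1HI and BaP. Adam8 takes 60.8% and 57.4% in MAR1INT, 21.8% and 24.7% in MAR1HI, and 3.77% and 7.14% in BaP.

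The other ADAM genes added little. Of 29 listed, 7 reached a TPM of 1 in any library and 3 passed the filter, and together the 29 summed to between 13.8 and 26.9 TPM per library. Adam4, a gene known from testis, stood at 13.6 and 7.83 TPM in MAR1INT, 11.0 and 16.2 in MAR1HI, and 8.52 and 13.3 in BaP. It lies on the same strand within Cox16, a widely expressed mitochondrial gene, so its level is uncertain. Adam1a (2.92 ± 1.51 TPM in MAR1INT, 4.93 ± 2.43 in MAR1HI and 2.81 ± 0.604 in BaP) overlaps Mapkapk5 on the same strand and is uncertain too. Adam1b had 0.754 ± 0.272 TPM in MAR1INT, 1.70 ± 0.0760 in MAR1HI and 0.903 ± 0.107 in BaP. None of these 3 was called in any comparison by limma. Adam20 (3.07 TPM), Adam34 (1.59) and Adamdec1 (1.19) reached 1 TPM in 1 BaP library each, and Adam30 (3.13) in 1 MAR1INT library.

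Genes that work with the ADAM proteases, from 6 lists of 66 genes, were tested with limma over all 11337 genes (Benjamini-Hochberg, called at an adjusted p under 0.05). Of these 66, 37 passed the filter. Between MAR1INT and BaP 10 rose and 6 fell in MAR1INT (43.2% of 37, against 31.5% of all tested genes, of which 11.1% rose and 20.4% fell). Between MAR1HI and BaP 1 rose and 1 fell (5.41%, against 2.49% of all genes, 1.83% up and 0.662% down), and between MAR1INT and MAR1HI 2 rose and 1 fell (8.11%, against 16.8%, 2.29% up and 14.5% down). These comparisons share libraries and are not independent. Some of the calls below were also lost under other settings. Without the filter, this was so for Rhbdf2, Tnf, Il6ra, Sema4d, Notch2 and Cd44, for Furin and Csf1r between MAR1HI and BaP, and for Cdh1 between MAR1INT and MAR1HI. After quantile normalization it was so for Tnf, Il6ra, Mertk and Icosl. A pseudocount of 0.1 ended the call of Rhbdf2 and those of Furin and Csf1r between MAR1HI and BaP, and fitting only the 2 populations compared ended those of Rhbdf2 and Il6ra.

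**Figure D5:**
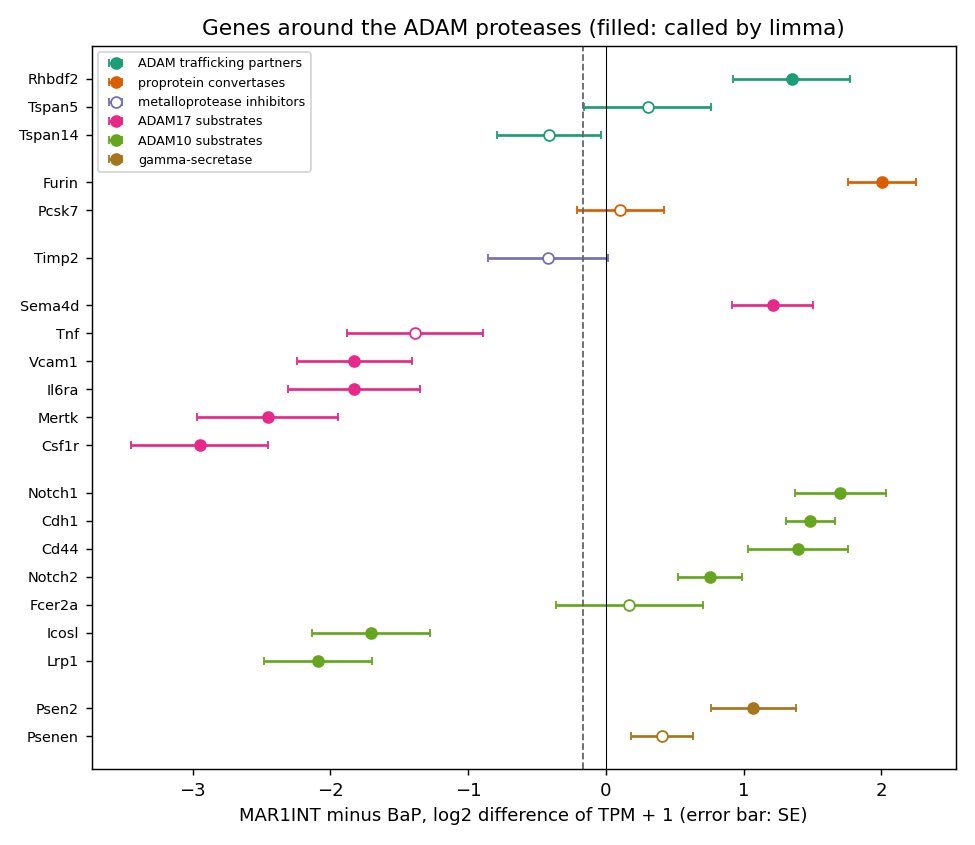
Log2 difference of TPM + 1, MAR1INT minus BaP (horizontal axis, error bar SE), of the tested genes around the ADAM proteases that the text names, coloured by list. Filled points were called by limma, and the dashed line is the median of all tested genes. Furin is the highest point, at 2.004, and Csf1r the lowest, at -2.95.

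Among the proteins that remove ADAM prodomains, the convertase gene Furin rose, and of 4 convertases it and Pcsk7 were tested. Furin had 129 and 127 TPM in MAR1INT, 71.8 and 90.9 in MAR1HI, and 28.3 and 34.3 in BaP. No library of one population overlapped another. Furin rose by 2.004 ± 0.25 (log2) between MAR1INT and BaP (limma adjusted p = 0.0005), under all 14 other settings, and by 1.35 ± 0.25 between MAR1HI and BaP (0.0288). The second call was lost without BaP replicate 1 (0.245), BaP replicate 2 (0.144), MAR1HI replicate 1 (0.0909) or MAR1HI replicate 2 (0.28). Pcsk7 averaged 22.6 ± 0.917 TPM in MAR1INT, 27.1 ± 5.43 in MAR1HI and 20.9 ± 0.861 in BaP and was not called.

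Of 9 trafficking partners 6 were tested and 1 rose between MAR1INT and BaP, where 11.1% of all tested genes rose. The list holds the iRhoms and their cofactor Frmd8, which carry ADAM17 to the cell surface, and the TspanC8 tetraspanins, which do so for ADAM10. Rhbdf2, the iRhom of immune cells, had 42.9 and 30.7 TPM in MAR1INT, 23.9 and 45.9 in MAR1HI, and 9.96 and 18.6 in BaP. It rose between MAR1INT and BaP by 1.35 ± 0.42 (limma adjusted p = 0.037), a call lost without BaP replicate 1 (0.281), BaP replicate 2 (0.0626), MAR1HI replicate 1 (0.0553) or MAR1HI replicate 2 (0.0568). The other iRhom gene, Rhbdf1, was listed at 0 in every library. Tspan14 averaged 11.7 ± 2.41 TPM in MAR1INT, 19.4 ± 5.48 in MAR1HI and 15.8 ± 2.28 in BaP, and Tspan5 averaged 18.6 ± 11.3 TPM in MAR1INT, 18.0 ± 5.39 in MAR1HI and 13.5 ± 0.582 in BaP. Neither was called.

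Of 6 inhibitors of metalloproteases, Timp2 alone passed the filter. It had 6.20 and 3.17 TPM in MAR1INT, 9.80 and 9.997 in MAR1HI, and 6.42 and 6.25 in BaP, with no call in any comparison. Timp3, which encodes the main tissue inhibitor of ADAM17, was listed at 0 in 5 of the 6 libraries and at 0.0148 TPM in MAR1HI replicate 1.

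Of 19 genes of ADAM17 substrates 12 were tested. Between MAR1INT and BaP 2 rose and 4 fell (median -1.06, against -0.16 for all genes), where 11.1% of all tested genes rose and 20.4% fell. Sema4d, a semaphorin, was among those that rose, by 1.21 ± 0.30 (limma adjusted p = 0.0136, and 0.122 without BaP replicate 1). The 4 that fell were the receptor genes Csf1r (-2.95 ± 0.50, limma adjusted p = 0.00232), Mertk (-2.46 ± 0.51, 0.00627) and Il6ra (-1.83 ± 0.48, 0.0182) and the adhesion gene Vcam1 (-1.83 ± 0.42, 0.01). Mean TPM in BaP and MAR1INT was 34.5 and 4.03 for Csf1r and 9.92 and 2.11 for Vcam1. Mertk (5.11 and 0) and Il6ra (3.88 and 0.285) were low. Csf1r also fell between MAR1HI and BaP (-2.83 ± 0.50, 0.023).

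Csf1r and Vcam1 are also macrophage markers, and that list summed to 205 to 256 TPM in MAR1INT, 231 to 282 in MAR1HI and 592 to 1054 in BaP. The part of such cells in these falls was not tested. The call of Vcam1 was lost without BaP replicate 1 (limma adjusted p = 0.0849) or BaP replicate 2 (0.0623). That of Il6ra was lost without BaP replicate 2 (0.0962), MAR1HI replicate 1 (0.0538) or MAR1HI replicate 2 (0.0543). The Csf1r call between MAR1HI and BaP was lost without any 1 of the libraries of these populations (0.124 to 0.31). Tnf, whose product gave ADAM17 its name, was low: 0.0516 and 0.409 TPM in MAR1INT, 3.33 and 5.65 in MAR1HI, and 1.19 and 3.61 in BaP. It fell in MAR1INT against MAR1HI by 2.14 on the log2 scale (0.0186, and 0.0829 without MAR1HI replicate 1 or 0.173 without MAR1HI replicate 2).

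Of 21 genes of ADAM10 substrates 11 were tested. Between MAR1INT and BaP 4 rose and 2 fell (median 0.50, against -0.16 for all genes), where 11.1% of all tested genes rose and 20.4% fell. Cdh1, which encodes E-cadherin, had 784 and 738 TPM in MAR1INT, 433 and 476 in MAR1HI, and 272 and 271 in BaP, with no overlap. It rose by 1.48 ± 0.18 between MAR1INT and BaP (limma adjusted p = 0.000435), under all 14 other settings, and by 0.74 ± 0.18 between MAR1INT and MAR1HI (0.022). The second call was lost when any 1 of the 6 libraries was left out, with an adjusted p of 0.05 to 0.105.

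The receptor genes Notch1 and Notch2 rose in MAR1INT against BaP. Notch1 had 99.9 and 85.5 TPM in MAR1INT, 52.3 and 85.6 in MAR1HI, and 21.7 and 35.3 in BaP, a rise of 1.70 ± 0.33 (limma adjusted p = 0.00469, and 0.0603 without BaP replicate 1). Notch2 averaged 142 ± 13.0 TPM in MAR1INT, 120 ± 22.1 in MAR1HI and 83.8 ± 3.66 in BaP, a rise of 0.76 ± 0.23 (0.0329). Its call was lost without either BaP library (0.176 and 0.128) or either MAR1INT library (0.0591 and 0.152). Cd44, the hyaluronan receptor, averaged 46.4 ± 1.93 TPM in MAR1INT, 38.0 ± 12.5 in MAR1HI and 17.6 ± 6.76 in BaP, a rise of 1.39 ± 0.36 (0.0176, and 0.171 without BaP replicate 1). Lrp1, a scavenger receptor (-2.09 ± 0.39, limma adjusted p = 0.00394), and Icosl, a costimulatory ligand (-1.71 ± 0.43, 0.0154), fell. Without BaP replicate 2 the Icosl difference was -1.60 and its call was lost. Both genes were low, with mean TPM in BaP and MAR1INT of 5.06 and 0.418 for Lrp1 and 2.90 and 0.21 for Icosl. Fcer2a, the low-affinity IgE receptor gene, stood at 0 and 1.60 TPM in MAR1INT, 0 and 0.0042 in MAR1HI, and 0 and 1.06 in BaP, and was not called.

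Gamma-secretase cuts the membrane stub that a sheddase leaves behind. Of its 7 genes 5 were tested, and Psen2, which encodes a catalytic subunit, was among those that rose between MAR1INT and BaP. It averaged 35.1 ± 0.420 TPM in MAR1INT, 35.7 ± 8.78 in MAR1HI and 16.2 ± 0.784 in BaP, a rise of 1.07 ± 0.31 (limma adjusted p = 0.0267). The call was lost without either BaP library (0.136 and 0.156). Psenen averaged 172 ± 4.04 TPM in MAR1INT, 209 ± 49.6 in MAR1HI and 129 ± 4.78 in BaP and was not called.

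Adam8 was the only one of the 6 genes whose highest and lowest group means differed by 1 or more on the log2 scale. Among 4888 tested genes with such a range, the closest profiles over the 6 libraries were those of Cxcr2, a chemokine receptor gene (Pearson r = 0.999), Mir6935 (0.998) and the cytoplasmic actin gene Actg1 (0.998). Cxcr2 averaged 472 ± 43.9 TPM in MAR1INT, 165 ± 45.9 in MAR1HI and 47.5 ± 12.3 in BaP. Mir6935 lies within Actg1 on the same strand, so these are not separate measurements. The 6 points fall into 3 populations of 2 libraries, so this is a likeness of level order and no more.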

How the data were processed

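TRIzol LS was used for the RNA and a SureSelect capture kit for the libraries, per the labels' protocols. The tools were Trimmomatic, HISAT2 and StringTie and the build was mm10, per the submitters' processing notes; versions, options and annotation are not given in the sources used here. Each deposited table holds, per the file headers, the authors' coverage (a signal: mean read depth per base), FPKM and TPM for each gene. The TPM column of each deposited table summed to 1000000. Coverage divided by FPKM gave the implied aligned bases. Read numbers are unknown, so no counting interval is given.

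Parts of 1 gene ID were summed, and 24462 of 24532 IDs were matched to symbols (RefSeq, GRCm38.p6). The 11337 genes that reached 1 TPM in 2 or more of 6 libraries entered a limma fit (limma 3.58.1, R 4.3.3) of log2(TPM + 1) (trend, 1 term per population, 3 residual degrees of freedom), two-sided, with Benjamini-Hochberg adjustment over all of them. This scale understates changes of low genes. An exact permutation test of 2 against 2 cannot go below p = 0.333. The members and gene lists were chosen with earlier results of these data known. Named genes were the 6 members, called list members (at most 6 per comparison, or the 2 most abundant of a list with no call), other ADAM genes reaching 1 TPM, and the 3 closest profiles; Frmd8, Tspan14, Tspan5, Pcsk7, Timp3, Tnf in other comparisons, Fcer2a, Rhbdf1 and uncalled gamma-secretase genes were named after their values were seen. Some genes of these lists are not reported here. The alternatives were 3 scalings, a pseudocount of 0.1, 2 other filters, fits of only 2 populations, a replicate block and leaving out each library.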

Additional observations from a re-analysis of the deposited data

How the results depend on the processing

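Adam8 kept its direction in every comparison and setting run, from 2.03 to 3.03 (MAR1HI minus BaP), 1.58 to 2.35 (MAR1INT minus MAR1HI) and 3.997 to 4.996 (MAR1INT minus BaP). With no overlap of its libraries, only the 3 other scalings could have turned it. Adam10 turned for MAR1HI minus BaP, to -0.0115 by quantile normalization and -0.0477 by the median of ratios, and for MAR1INT minus BaP, to -0.0962 with FPKM and -0.004 by quantile normalization. Adam15 turned for MAR1INT minus MAR1HI, to 0.0023 after quantile normalization. Differences within the spread of the duplicates turned too. For MAR1INT minus MAR1HI, quantile normalization gave 0.0075 for Adam10, 0.1948 for Adam9 and 0.8208 for Adam19, and the median of ratios 0.1806 for Adam10. For MAR1INT minus BaP, quantile normalization gave 0.708 for Adam19 and FPKM -0.0329 for Adam9. With 1 library left out, Adam9, Adam10, Adam15, Adam17 and Adam19 each turned in some comparison.

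For MAR1HI minus BaP, limma called 282 genes, and 89 with a pseudocount of 0.1, 4 with no filter, 1062 with only the 2 populations compared and 3 to 1092 when 1 library was left out. The ADAM pathway genes called there were 2, and 0 with a pseudocount of 0.1, 0 with no filter, 12 with only 2 populations and 0 to 13 with 1 library left out. Of other metalloprotease genes 0 were called, and 1 with FPKM, 1 with only 2 populations and 0 to 1 with 1 library left out; 2 of them had an unadjusted p under 0.05. ADAM genes with no overlap numbered 3, a relation that 53.5% of all tested genes showed. Leaving out a library makes such separation easier for any gene, so those counts are not given here or below.

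For MAR1INT minus MAR1HI, 1900 genes were called, 562 with no filter and 239 to 2611 with 1 library left out. The pathway genes called were 3, and 1 with no filter, 5 with FPKM, 5 with median of ratios and 1 to 6 with 1 library left out. Of other metalloprotease genes limma called 0, and 1 by quantile normalization, 1 by the median of ratios and 0 to 1 with 1 library left out; 1 had an unadjusted p under 0.05. ADAM genes with no overlap numbered 2, against 55% of all tested genes, and 4 with FPKM.

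For MAR1INT minus BaP, 3574 genes were called, 2358 with no filter and 1581 to 4024 with 1 library left out. The pathway genes called were 16, and 8 to 18 with 1 library left out. Other metalloprotease genes called were 3, 1 with a mean TPM of 5 or more and 1 to 3 with 1 library left out. ADAM genes with no overlap numbered 4, against 68.9% of all tested genes. The causes were not tested.

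The median of all genes moved with the scaling. For MAR1HI minus BaP TPM gave 0.24, FPKM 0.03, quantile normalization 0.02 and the median of ratios -0.04. For MAR1INT minus MAR1HI it was -0.36, -0.32, 0.11 and -0.11, and for MAR1INT minus BaP -0.16, -0.34, 0.11 and -0.17, in the same order of scalings. The share of calls that were higher, in that order of scalings, was 73.4%, 57.3%, 56.9% and 60.0% for MAR1HI minus BaP, 13.7%, 16.5%, 45.3% and 39.7% for MAR1INT minus MAR1HI, and 35.3%, 27.8%, 55.1% and 41.4% for MAR1INT minus BaP.

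No pairing of libraries by replicate number was seen: same-numbered deviations correlated at -0.059 (MAR1INT and MAR1HI), -0.092 (MAR1INT and BaP) and 0.154 (MAR1HI and BaP). With 2 libraries a population, such values cannot exclude a pairing. With a replicate block limma called 211 genes for MAR1HI minus BaP, 1760 for MAR1INT minus MAR1HI and 3394 for MAR1INT minus BaP. With 2 libraries a population, small differences of Adam9, Adam10, Adam15, Adam17 and Adam19 could not be resolved.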

Other observations

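Outside the ADAM family, few of the listed MMP and ADAMTS genes passed the filter. Of 21 MMP genes 5 were tested, and between MAR1INT and BaP 2 of them fell in MAR1INT, against 20.4% of all tested genes. Of 9 tested genes over all lists of other metalloproteases and ADAM genes 33.3% were called, against 31.5% of all tested genes. Mmp19 was listed at 0 in both MAR1INT libraries and had 0.620 ± 0.0906 TPM in MAR1HI and 3.50 ± 0.635 in BaP (limma adjusted p = 0.00288). Mmp27 had 0.663 ± 0.938 TPM in MAR1INT, 3.52 ± 1.34 in MAR1HI and 5.04 ± 1.08 in BaP (0.0179, and 0.113 without BaP replicate 1 or 0.0657 without BaP replicate 2). The Mmp27 call was also lost with a pseudocount of 0.1 (limma adjusted p = 0.0555), with no filter (0.0922) and after quantile normalization (0.104). The neutrophil collagenase gene Mmp8 and the gelatinase gene Mmp9 were not called. They stood at 77.2 and 51.8 TPM in BaP replicate 2, the library with the highest sum of neutrophil markers, and at 31.2 and 11.4 TPM in BaP replicate 1.

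Of 19 ADAMTS genes, which encode secreted relatives of the ADAM proteases, only Adamts10 passed the filter. It had 74.8 and 72.0 TPM in MAR1INT, 41.4 and 57.3 in MAR1HI, and 29.5 and 32.04 in BaP, with no overlap between populations. It rose by 1.23 ± 0.27 (log2) between MAR1INT and BaP (limma adjusted p = 0.00839, and 0.0784 without BaP replicate 1 or 0.057 without BaP replicate 2), and 11.1% of all tested genes were called higher in that comparison. At these levels it was more abundant than Adam15 and Adam9 in every library.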
